A study of Homo sapiens with 8 samples.

Results

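The 33 genes described here make cholesterol and fatty acids, or control the genes that do, and lie under the sterol regulatory element-binding proteins (SREBPs). They are a list of gene names from this pathway, drawn up with earlier results of these data known, and all 33 of 33 were found among the 16295 genes listed for 8 RNA-seq libraries. Each library came from MM1.S, a human plasma-cell line derived from multiple myeloma, after 24 h of culture. The groups were cells given 0.5 uM of MS177, cells given 0.5 uM of C24, cells given 0.5 uM of MS177N1, and cells given the solvent DMSO, with 2 libraries in each. As background, EZH2 is a histone methyltransferase inhibited by C24. MS177 joins C24 to a ligand of CRBN, a ubiquitin ligase receptor, and so sends EZH2 to the proteasome, while MS177N1 is its control analog and lacks that degrading activity. A single cell line, a single dose and a single time were used. The labels do not say whether a group's libraries came from separate cultures, so the spread behind each p-value may be technical.

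As background, SREBP-1 and SREBP-2, encoded by SREBF1 and SREBF2, are membrane-bound transcription factors. The escort protein SCAP carries them from the endoplasmic reticulum to the Golgi, where they are cut and released to the nucleus, and INSIG1 holds SCAP back when sterols are plentiful. SREBP-2 acts mainly on cholesterol genes and SREBP-1 mainly on fatty acid genes, commonly next to bound NF-Y. Plasma cells use these lipids for the large endoplasmic reticulum in which antibody is made.

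Library depth, as reads summed over listed genes, was 20000665 to 26619099. Levels are normalized reads, which are reads divided by a library's size factor, and they are not corrected for transcript length, so they are compared between libraries and not between genes. A change is the log2 fold change of normalized reads plus 1 with its standard error (SE), fitted with limma over 14164 genes. A gene was called at a Benjamini-Hochberg adjusted p under 0.05 over all genes tested. All 33 members passed the filter on low reads. In these bulk libraries, fewer cells and less of an RNA per cell cannot be told apart. All 10 plasma-cell markers examined were well read in every library. With MS177 against DMSO, 8 of these 10 were called lower, beside 29.0% of all genes tested, and 1 higher, beside 28.9% (median log2 fold change -0.26). Their summed level was 140080 to 140231 normalized reads with MS177, against 211181 to 211523 with DMSO. Most of that fall was in IGJ (34601 and 34216 with MS177, against 80811 and 79845 with DMSO) and SDC1 (12569 and 12278, against 28444 and 29160). XBP1 was the marker called higher (0.11), and MAF was not called (0.08). Markers of other cell types were low, apart from NCAM1. The monocyte and granulocyte markers, of which 3 of 6 were listed, summed to 70.7 to 87.0 normalized reads with MS177, against 22.0 to 24.0 with DMSO; most of that was ITGAM, and CSF1R was at 0 in 1 library of each group. The 3 listed T and NK cell markers summed to 394 to 430 with MS177, against 200 to 217 with DMSO. Of these, the adhesion molecule NCAM1 rose (358 and 397 with MS177, against 140 and 138 with DMSO) and the T cell receptor subunit CD3E fell (33.2 and 29.9 with MS177, against 75.9 and 61.5 with DMSO; -1.09, limma adjusted p = 0.00251). The 1 listed B cell marker, BCL6, had 47.2 to 56.1 with MS177, against 10.6 to 15.4 with DMSO. The 5 listed stromal and epithelial markers summed to 61.7 to 72.9 with MS177, against 23.1 to 43.3 with DMSO, and the 1 listed hepatocyte marker, APOA1, had 0 to 6.43 with MS177, against 2.88 to 4.40 with DMSO. The other markers of these lists are not analysed here. The part of these shifts in the results below was not tested.

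RefSeq promoter windows (GRCh38.p14) were at hand for 29 of the 33 members. There was none for ACAT2, FDFT1, SQLE and FASN. The 250 bases before the first start listed for each gene were searched on both strands for 3 motifs. These were the sterol regulatory element bound by SREBPs (TCACNCCAC), the E-box, which SREBP-1 also binds (CACGTG), and the box bound by NF-Y (CCAAT, read as ATTGG on the other strand). No match overlapped a match of another motif. The NF-Y box was found in 14 of 17 sterol-arm windows (82.4%), in 3 of 8 fatty acid windows (37.5%) and in 9021 of 27305 windows in the whole table (33.0%). The exact sterol regulatory element stood in 1 of 29 member windows, that of SREBF2, and in 0.875% of all windows; the E-box stood in 3 of 29 (those of SCAP, INSIG1 and SC5D), and in 6.49% of all windows. A match is only a run of letters, and a window without one says nothing about binding.

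6 windows are shown because they carry the contrasts in the values that follow, with motif matches in capitals and the gene's own strand written 5′ to 3′. SREBF2 (chr22:41832855-41833104, plus strand) holds the sterol regulatory element beside an NF-Y box, and INSIG1 (chr7:155297628-155297877, plus strand) holds an E-box and an NF-Y box. MSMO1 (chr4:165327419-165327668, plus strand), EBP (chrX:48521558-48521807, plus strand) and SCD (chr10:100346983-100347232, plus strand) stand for members that fell with MS177 and hold NF-Y boxes. Windows of other members that fell, those of PMVK and ACACA among them, hold no NF-Y box and are not printed. MVK (chr12:109573544-109573793, plus strand) holds 5 NF-Y boxes and was not called.
SREBF2: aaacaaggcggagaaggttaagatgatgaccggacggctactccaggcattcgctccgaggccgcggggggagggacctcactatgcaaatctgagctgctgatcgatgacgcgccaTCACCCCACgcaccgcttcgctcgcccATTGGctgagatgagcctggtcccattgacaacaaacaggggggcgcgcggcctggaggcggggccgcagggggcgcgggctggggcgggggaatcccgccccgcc
INSIG1: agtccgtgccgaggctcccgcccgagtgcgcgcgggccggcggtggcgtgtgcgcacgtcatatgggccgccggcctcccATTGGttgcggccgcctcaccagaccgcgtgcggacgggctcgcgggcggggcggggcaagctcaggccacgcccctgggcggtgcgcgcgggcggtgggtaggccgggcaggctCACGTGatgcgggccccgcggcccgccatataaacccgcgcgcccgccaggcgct
MSMO1: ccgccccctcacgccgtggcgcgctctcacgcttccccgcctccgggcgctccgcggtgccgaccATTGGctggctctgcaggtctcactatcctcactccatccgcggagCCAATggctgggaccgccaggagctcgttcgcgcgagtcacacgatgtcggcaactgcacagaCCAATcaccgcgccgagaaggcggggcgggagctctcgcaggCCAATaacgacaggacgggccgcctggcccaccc
EBP: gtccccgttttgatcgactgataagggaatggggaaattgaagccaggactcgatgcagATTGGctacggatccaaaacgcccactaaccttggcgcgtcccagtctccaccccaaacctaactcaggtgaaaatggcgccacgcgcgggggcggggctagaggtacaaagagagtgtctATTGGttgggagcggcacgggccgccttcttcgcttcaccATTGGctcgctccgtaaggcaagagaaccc
SCD: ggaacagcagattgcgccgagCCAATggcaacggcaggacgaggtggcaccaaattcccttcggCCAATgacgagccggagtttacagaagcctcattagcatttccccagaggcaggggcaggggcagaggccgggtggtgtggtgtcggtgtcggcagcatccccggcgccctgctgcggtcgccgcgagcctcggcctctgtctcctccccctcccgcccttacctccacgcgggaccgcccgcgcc
MVK: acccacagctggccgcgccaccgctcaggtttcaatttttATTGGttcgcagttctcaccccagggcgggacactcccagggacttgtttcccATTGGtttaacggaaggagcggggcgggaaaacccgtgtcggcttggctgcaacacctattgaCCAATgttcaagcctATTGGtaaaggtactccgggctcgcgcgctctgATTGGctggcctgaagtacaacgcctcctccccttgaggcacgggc

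With MS177, most genes of the pathway fell. Against DMSO, 24 of 33 members were called lower, beside 29.0% of all genes tested, 2 were called higher, beside 28.9%, and 7 were not called. The median log2 fold change was -0.52 over the members and 0.00 over all genes tested. 4 members were called at least 2-fold lower, beside 4.56% of all genes tested: SQLE in the sterol arm and FASN, ACACA and SCD in the fatty acid arm. In the 20 genes of the sterol arm 15 fell and 0 rose (median -0.70), in the 9 genes of the fatty acid arm 5 fell and 2 rose (median -0.48), and all 4 regulators fell (median -0.35).

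**Figure D1:**
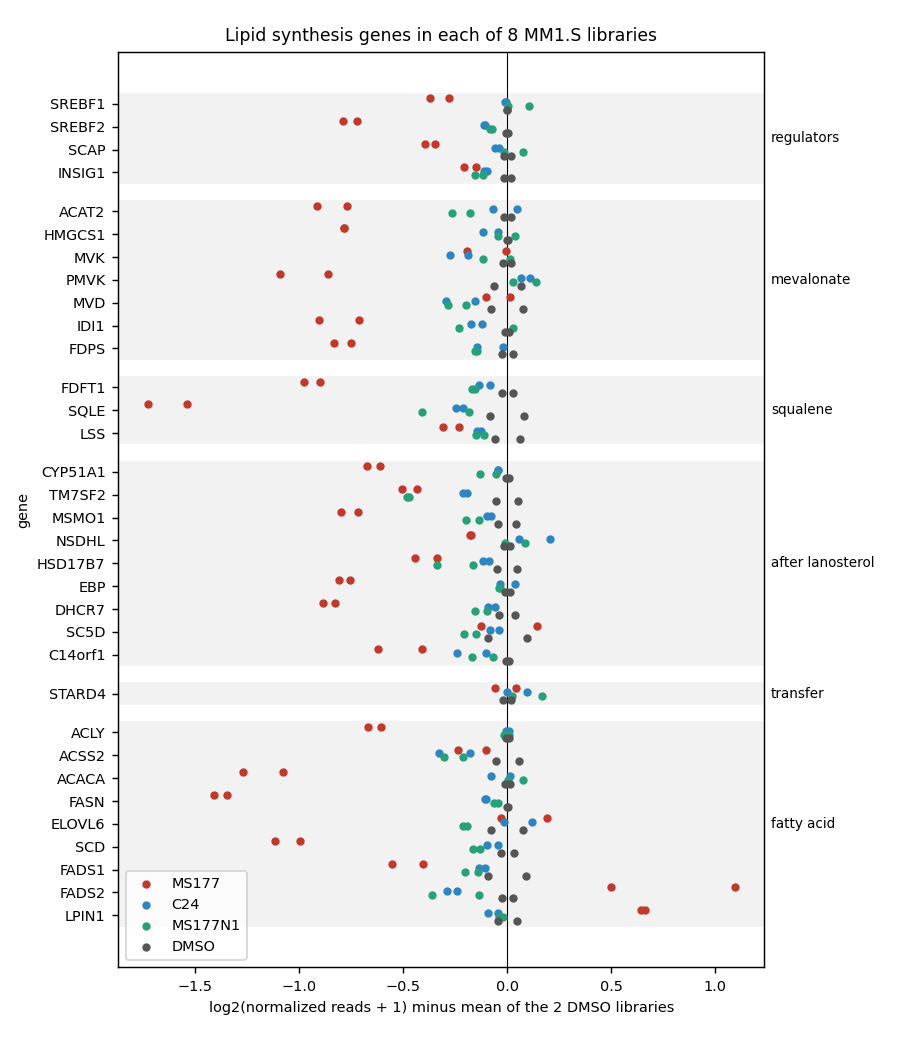
Each point is 1 library: log2(normalized reads + 1) of a gene (rows, by role) minus the mean of the 2 DMSO libraries. The MS177 points lie left of the others for most genes, on both sides of 0 for SC5D, STARD4, MVD and ELOVL6, and right of all others for FADS2 and LPIN1.

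Of the regulators, SREBF2, the factor of the cholesterol genes, had 4251 and 4061 normalized reads with MS177, 6492 and 6519 with C24, 6625 and 6674 with MS177N1 and 7044 and 6989 with DMSO. Both MS177 libraries were below all 6 others, and SREBF2 fell by 0.76 on the log2 scale against DMSO (SE 0.04, limma adjusted p = 1.19e-09). SREBF1, the factor of the fatty acid genes, had 1393 and 1306 with MS177, 1680 and 1686 with C24, 1818 and 1696 with MS177N1 and 1693 and 1691 with DMSO. It fell less, by 0.33 (SE 0.06, limma adjusted p = 0.000352), again with both MS177 libraries below all others; its span overlaps that of RAI1, which rose by 0.27 (SE 0.08). The difference between the falls of SREBF2 and SREBF1 was not tested.

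SCAP, the escort protein, had 2166 and 2241 normalized reads with MS177, 2738 and 2778 with C24, 2821 and 3007 with MS177N1 and 2887 and 2820 with DMSO. It fell by 0.37 (SE 0.05, limma adjusted p = 2.47e-05), with no overlap between MS177 and any other group. INSIG1, which retains SCAP and is itself a known SREBP target, had 3320 and 3184 with MS177, 3446 and 3412 with C24, 3310 and 3400 with MS177N1 and 3728 and 3637 with DMSO. Its libraries overlapped between MS177 and MS177N1, and all 6 treated libraries were below both DMSO libraries. The fall of INSIG1 with MS177 against DMSO was 0.18 (SE 0.05, limma adjusted p = 0.00598), and under total-read scaling it was not called (-0.09, adjusted p = 0.116).

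The mevalonate steps carry acetyl-CoA to the isoprenoid farnesyl diphosphate, and 5 of their 7 genes fell. PMVK, phosphomevalonate kinase, had 1858 and 1582 normalized reads with MS177, 3536 and 3654 with C24, 3452 and 3721 with MS177N1 and 3535 and 3235 with DMSO. The MS177 libraries were about 2-fold below the rest, and the log2 fold change against DMSO was -0.98 (SE 0.07, limma adjusted p = 2.36e-08). ACAT2, the cytosolic thiolase that starts the pathway, had 449 and 497 with MS177, 808 and 876 with C24, 749 and 706 with MS177N1 and 838 and 859 with DMSO (-0.84 against DMSO, SE 0.08, limma adjusted p = 4.28e-07). Its span overlaps those of TCP1, which fell by 0.67 (SE 0.05), and SOD2, which fell by 0.45 (SE 0.06), and with no statement that the counting used strand its reads are uncertain. IDI1, isopentenyl diphosphate isomerase, had 843 and 738 with MS177, 1273 and 1227 with C24, 1409 and 1178 with MS177N1 and 1392 and 1375 with DMSO. It fell by 0.81 (SE 0.09, limma adjusted p = 9.61e-07), beside falls of 0.79 (SE 0.05) in FDPS, farnesyl diphosphate synthase, and of 0.78 (SE 0.07) in HMGCS1, the synthase of HMG-CoA. FDPS has pseudogene copies that could share reads, and the overlapping RUSC1-AS1 was at -0.67 (SE 0.28, limma adjusted p = 0.0523). The span of IDI1 overlaps that of WDR37, which was at -0.18 (SE 0.09, limma adjusted p = 0.0819).

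MVK and MVD, the mevalonate kinase and the diphosphomevalonate decarboxylase, did not follow. MVK had 243 and 277 normalized reads with MS177, against 282 and 275 with DMSO (log2 fold change -0.10, 95% interval -0.36 to 0.16, limma adjusted p = 0.504). The span of MVK overlaps that of MMAB, which was at 0.21 (SE 0.10, limma adjusted p = 0.0788), and sharing of reads was not tested. MVD had 370 and 342 with MS177, against 387 and 348 with DMSO (-0.05, 95% interval -0.28 to 0.19, limma adjusted p = 0.749). In both genes the libraries of MS177 and DMSO overlapped, and both intervals end short of the log2 fold change of -0.78 in HMGCS1.

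The squalene steps commit the pathway to sterols, and all 3 genes fell. SQLE, squalene epoxidase, had 204 and 233 normalized reads with MS177, 573 and 586 with C24, 598 and 511 with MS177N1 and 719 and 641 with DMSO. This was the largest fall among the members, -1.64 against DMSO (SE 0.11, limma adjusted p = 3.84e-09), and both MS177 libraries were below all 6 others. FDFT1, squalene synthase, had 1484 and 1409 with MS177, 2613 and 2525 with C24, 2491 and 2465 with MS177N1 and 2719 and 2825 with DMSO, a change of -0.94 (SE 0.06, limma adjusted p = 1.32e-09). LSS, lanosterol synthase, had 2389 and 2265 with MS177, 2538 and 2573 with C24, 2595 and 2526 with MS177N1 and 2927 and 2694 with DMSO. LSS fell by only 0.27 (SE 0.06, limma adjusted p = 0.000799), with C24 and MS177N1 libraries between those of MS177 and DMSO.

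Of the 9 genes that turn lanosterol into cholesterol or assist in it, 7 fell, by 0.39 to 0.86, and 0 rose. DHCR7, the reductase of the last step, had 1272 and 1221 normalized reads with MS177, 2119 and 2174 with C24, 2034 and 2112 with MS177N1 and 2323 and 2201 with DMSO (-0.86 against DMSO, SE 0.06, limma adjusted p = 6.55e-09). EBP, a sterol isomerase, had 1637 and 1580 with MS177, 2842 and 2701 with C24, 2689 and 2703 with MS177N1 and 2789 and 2747 with DMSO (-0.78, SE 0.05, limma adjusted p = 7.15e-09). MSMO1, the methylsterol monooxygenase, had 822 and 777 with MS177, 1266 and 1283 with C24, 1232 and 1179 with MS177N1 and 1314 and 1395 with DMSO (-0.76, SE 0.07, limma adjusted p = 1.45e-07). In these 3 genes the MS177 libraries stood apart and the other 6 lay close together. CYP51A1, the lanosterol demethylase, fell by 0.64 (SE 0.06), C14orf1, the scaffold now named ERG28, by 0.52 (SE 0.10), TM7SF2, a sterol reductase, by 0.47 (SE 0.11) and HSD17B7, a ketosteroid reductase, by 0.39 (SE 0.11). HSD17B7 has a near-identical pseudogene that could share its reads, and it was not called without DMSO replicate 2 (-0.34, adjusted p = 0.0501).

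NSDHL, the sterol dehydrogenase that works with MSMO1, and SC5D, the sterol C5-desaturase, were not called against DMSO. NSDHL had 677 and 678 normalized reads with MS177, against 774 and 759 with DMSO (-0.18, 95% interval -0.35 to -0.01, limma adjusted p = 0.0717). SC5D had 338 and 281 with MS177, against 287 and 327 with DMSO (0.01, 95% interval -0.26 to 0.27, limma adjusted p = 0.971). The NSDHL libraries did not overlap, and those of SC5D did. STARD4, a carrier that moves cholesterol between membranes, had 305 and 327 with MS177, 339 and 317 with C24, 357 and 323 with MS177N1 and 322 and 313 with DMSO (-0.01 with MS177 against DMSO, 95% interval -0.24 to 0.23). Its MS177 libraries overlapped those of every other group, and the sign of its change and those of MVD and SC5D turned under other settings.

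The fatty acid arm held both large falls and the only rises. FASN, fatty acid synthase, had 3548 and 3395 normalized reads with MS177, 8413 and 8389 with C24, 8630 and 8764 with MS177N1 and 9010 and 9050 with DMSO. It fell 2.60-fold against DMSO (-1.38, SE 0.04, limma adjusted p = 1.41e-12), and the other 6 libraries lay within a narrow band. ACACA, the acetyl-CoA carboxylase that makes the malonyl-CoA used by FASN, had 302 and 345 with MS177, 691 and 737 with C24, 732 and 770 with MS177N1 and 724 and 737 with DMSO, a 2.26-fold fall (-1.18, SE 0.09, limma adjusted p = 2.07e-08). SCD, the desaturase that makes monounsaturated fatty acids, had 1806 and 1960 with MS177, 3791 and 3663 with C24, 3490 and 3574 with MS177N1 and 3831 and 4002 with DMSO, a 2.08-fold fall (-1.06, SE 0.06, limma adjusted p = 2.97e-10). ACLY, which makes cytosolic acetyl-CoA from citrate, fell by 0.64 (SE 0.05), and the desaturase FADS1 by 0.48 (SE 0.09).

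LPIN1, a phosphatidate phosphatase that also acts as a transcriptional coactivator, moved the other way. It had 6393 and 6495 normalized reads with MS177, 3971 and 3840 with C24, 4035 and 3987 with MS177N1 and 3969 and 4233 with DMSO, a 1.57-fold rise against DMSO (0.65, SE 0.05, limma adjusted p = 1.74e-08). FADS2, the desaturase encoded next to FADS1, had 91.1 and 59.9 with MS177, 34.2 and 35.4 with C24, 32.5 and 38.2 with MS177N1 and 42.9 and 41.3 with DMSO. Both MS177 libraries were above all others but differed from each other, and the rise was 0.80 (SE 0.29, limma adjusted p = 0.0266). The FADS2 call was lost without MS177 replicate 1 (0.50, adjusted p = 0.267), without DMSO replicate 1 (0.82, adjusted p = 0.0658) and without DMSO replicate 2 (0.77, adjusted p = 0.0819), and its span overlaps that of FADS1. ACSS2, which makes acetyl-CoA from acetate, had 357 and 325 with MS177, against 369 and 399 with DMSO (-0.17, 95% interval -0.41 to 0.07). ELOVL6, the elongase of FASN products, had 260 and 303 with MS177, against 252 and 280 with DMSO (0.08, 95% interval -0.19 to 0.35). Neither was called, and the sign of ELOVL6 turned under other settings.

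**Figure D2:**
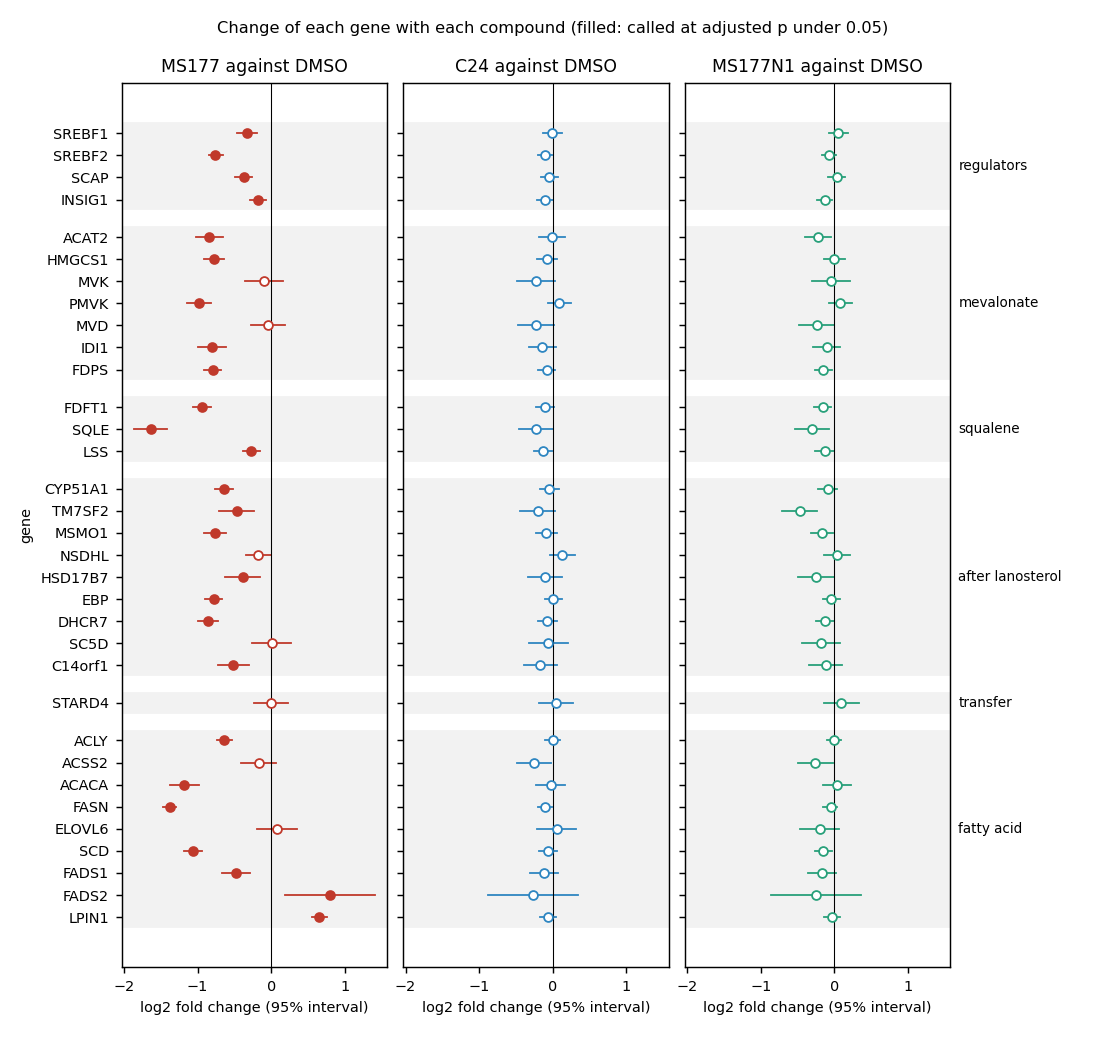
log2 fold change of each gene against DMSO with its 95% interval, for MS177, C24 and MS177N1; filled points were called at an adjusted p under 0.05. The MS177 panel has 26 filled points, 24 left of 0 and 2 right of it, and the C24 and MS177N1 panels have 0.

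The 2 arms were set side by side in each library as the mean over their genes of the log2 difference from the DMSO mean. The sterol arm was at -0.57 and -0.61 with MS177, -0.08 and -0.09 with C24, -0.10 and -0.16 with MS177N1 and 0.01 and -0.01 with DMSO. The fatty acid arm was at -0.37 and -0.38 with MS177, -0.08 and -0.11 with C24, -0.15 and -0.09 with MS177N1 and -0.03 and 0.03 with DMSO. The sterol arm thus stood 0.20 and 0.23 lower than the fatty acid arm in the MS177 libraries, while the difference lay between -0.07 and 0.05 in the other 6. Within the sterol arm, the squalene steps were lowest, at -0.96 and -0.94 with MS177, against 0.04 and -0.04 with DMSO. The mean of the fatty acid arm holds genes that fell further than all sterol genes but SQLE together with LPIN1 and FADS2, so its spread was wider (-1.38 to 0.80 among genes, against -1.64 to 0.01 in the sterol arm). LPIN1 (0.65) and FADS2 (0.80, from few reads) raise the fatty acid mean. The rest of that arm was at -1.38 (FASN), -1.18 (ACACA), -1.06 (SCD), -0.64 (ACLY), -0.48 (FADS1), -0.17 (ACSS2) and 0.08 (ELOVL6). The changes of that rest average lower than the sterol arm mean of either MS177 library. The order of the 2 arm means therefore depends on LPIN1 and FADS2 together, and it does not describe the rest of the fatty acid arm. The arm means are a description, with no test.

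**Figure D3:**
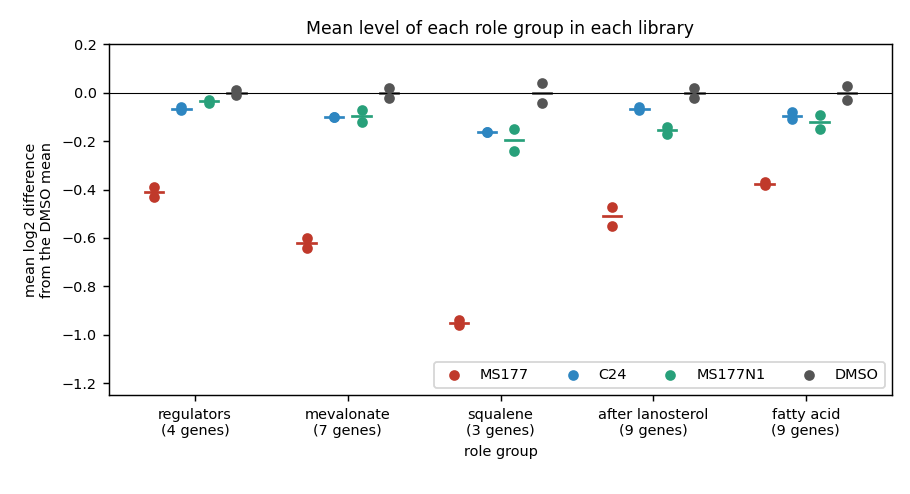
Mean over the genes of each role group of the log2 difference from the DMSO mean; each point is a library and each short line the mean of 2. The MS177 libraries lie below all others in the regulators, the mevalonate, squalene and later sterol steps and the fatty acid arm, from -0.96 in the squalene steps to -0.37 in the fatty acid arm.

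The members that were not called against DMSO were read less than most of the others. Their mean level in DMSO was 266 to 767 normalized reads (median 318, 7 genes), against 42.1 to 9030 (median 2128) in the 26 that were called. The SE of the log2 fold change ranged from 0.04 to 0.29 over the members, and was largest in FADS2, which was called. TM7SF2 and HSD17B7, with mean levels of 359 and 369 in DMSO and an SE of 0.11 each, were called. SC5D and STARD4, with 307 and 318 and SEs of 0.12 and 0.11, were not. The part of read level in the calls was not tested. An NF-Y box stood in 13 of 20 windows of genes called lower (65.0%), in 6 of 7 windows of genes not called (85.7%) and in 0 of 2 windows of genes called higher. ACAT2, FDFT1, SQLE and FASN, all called lower, had no window and are not in these shares. Of the windows printed above, that of MVK, which was not called, holds 5 boxes and that of MSMO1, which fell, holds 4.

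**Figure D4:**
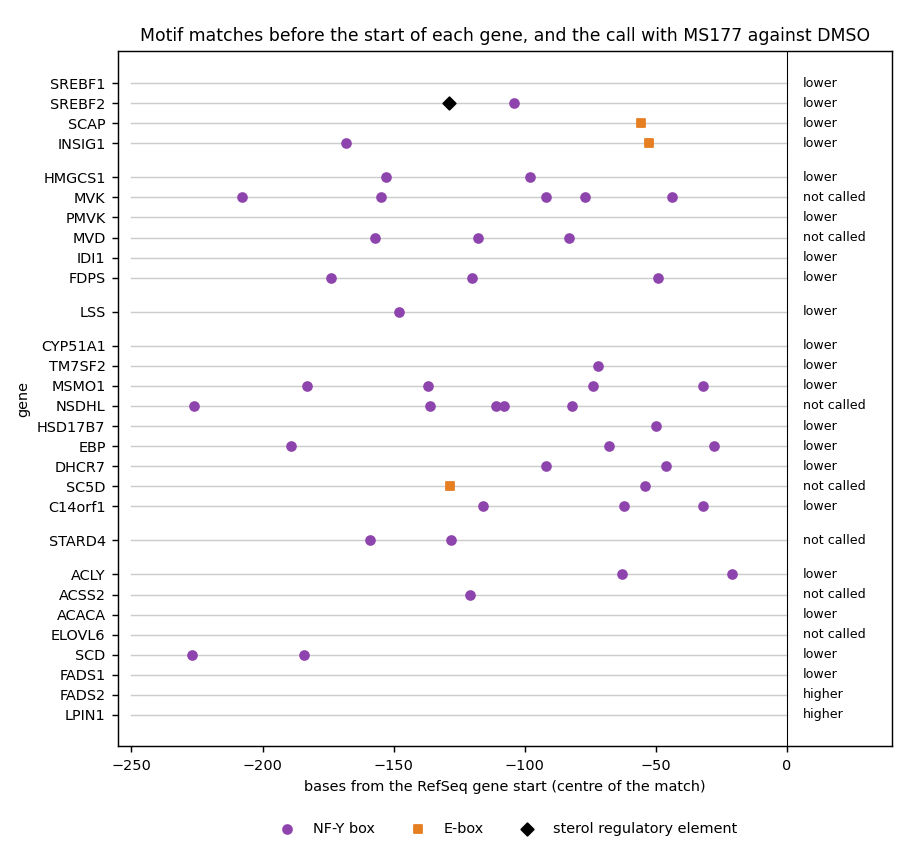
Matches of 3 motifs in the 250 bases before the RefSeq start of 29 genes, by the centre of each match, with the call in MS177 against DMSO at the right. NF-Y boxes crowd the sterol-arm rows, the single sterol regulatory element lies in SREBF2 at 133 to 125 bases before the start, and FADS2 and LPIN1 have no match.

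MS177 was also compared with each related compound at the same dose and time, which asks whether the degrader differs from its parent inhibitor and from its control. In MS177 against C24, 22 members were called lower, beside 29.0% of all genes tested, and 2 higher, beside 29.1% (median -0.36). In MS177 against MS177N1, 21 were called lower, beside 28.6%, and 2 higher, beside 28.8% (median -0.40). These comparisons and the one with DMSO share the MS177 libraries. Without MS177 replicate 1 only 1 member was called higher against C24, and under total-read scaling 4 were called higher against MS177N1. Through all 3 comparisons 20 members were called lower, beside 25.2% of all genes tested, 2 were called higher (FADS2 and LPIN1), beside 24.3%, and 6 were called in none, beside 33.3%. FASN had log2 fold changes of -1.28 against C24 and -1.33 against MS177N1, SQLE of -1.41 against C24 and -1.34 against MS177N1, and SREBF2 of -0.65 against C24 and -0.68 against MS177N1, each with an SE of 0.04 to 0.11.

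In 5 members the call depended on the group that MS177 was set against. INSIG1 differed by -0.08 from C24 (95% interval -0.18 to 0.03, limma adjusted p = 0.204) and by -0.05 from MS177N1 (-0.15 to 0.06, adjusted p = 0.463), and was called against DMSO alone. LSS differed by -0.14 from C24 and by -0.14 from MS177N1 (limma adjusted p = 0.0559 and 0.0514). TM7SF2 had 266 and 253 normalized reads with MS177, 314 and 310 with C24, 257 and 259 with MS177N1 and 346 and 373 with DMSO, so the MS177 and MS177N1 libraries overlapped (0.01, 95% interval -0.23 to 0.24, limma adjusted p = 0.972). HSD17B7 was called against C24 (-0.29, limma adjusted p = 0.0367) and not against MS177N1 (-0.14, adjusted p = 0.299). NSDHL was called against C24 (-0.31, limma adjusted p = 0.00387) and MS177N1 (-0.21, adjusted p = 0.0335), with 797 and 885 normalized reads with C24 and 760 and 813 with MS177N1.

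C24 and MS177N1 themselves gave no called member against DMSO, by limma and in each of the 18 alternative fits, limma with voom weights among them. Over all genes tested limma called 0.0918% with C24 and 0.0353% with MS177N1. At an unadjusted p under 0.05 there were 4 of 33 members with C24 and 12 of 33 with MS177N1, against 762 and 718 of 14164 genes. Among the members TM7SF2 with MS177N1 came nearest to a call (log2 fold change -0.47, SE 0.11, limma unadjusted p = 0.000624 and adjusted p = 0.491). The point estimates nevertheless leaned one way. With C24, 28 of 33 members had a log2 fold change below 0, beside 49.3% of all genes tested, and in 22 both C24 libraries were below both DMSO libraries, beside 17.4% (median -0.08). With MS177N1, 27 of 33 were below 0, beside 50.8%, and in 22 both libraries were below both DMSO libraries, beside 18.7% (median -0.13). Both counts rest on the same 2 DMSO libraries.

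For C24 against MS177N1, where no library is shared, 0 members were called by limma, beside 0.0141% of all genes tested. At an unadjusted p under 0.05 there were 2 of 33 members, against 634 of 14164 genes. The 95% intervals of the 32 members other than FADS2 lay between -0.44 and 0.53, and that of FADS2 was -0.63 to 0.59. Differences of up to that size are not excluded by these data. SQLE, for example, had 573 and 586 normalized reads with C24 and 598 and 511 with MS177N1 (0.07, 95% interval -0.16 to 0.30).

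The pathways next to these genes are described by their counts, to be read beside the 29.0% of all genes tested that were lower and the 28.9% that were higher with MS177 against DMSO. Of 17 genes on the branches from mevalonate to prenylation, dolichol and ubiquinone, 10 were called lower (58.8%) and 2 higher (11.8%; median -0.29). PDSS1, which makes the side chain of ubiquinone, fell by 1.07 (SE 0.12, limma adjusted p = 9.33e-07) and SRD5A3, a polyprenol reductase, by 0.74 (SE 0.13). GGPS1, geranylgeranyl diphosphate synthase, rose by 0.47 (SE 0.09) and FNTA, a farnesyltransferase subunit, by 0.44 (SE 0.06). Of 18 genes of SREBP processing and sterol sensing, 5 rose (27.8%) and 4 fell (22.2%), close to the shares of all genes (median 0.04), while 9 rose under total-read scaling and 7 fell with the length and GC trend removed. UBE2G2, a ubiquitin-conjugating enzyme of endoplasmic reticulum degradation, fell by 0.71 (SE 0.05), ERLIN1, which restrains SREBP activation, by 0.69 (SE 0.08), and the vesicle coat genes SEC24D and SEC24B rose by 0.55 (SE 0.06) and 0.48 (SE 0.08).

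Genes of sterol storage, traffic and export split evenly, 7 higher and 7 lower of 17 (41.2% each; median -0.16). ABCA1 and ABCG1, which export cholesterol from cells, rose from few reads. ABCA1 had 79.3 and 56.1 normalized reads with MS177, 11.1 and 8.85 with C24, 16.8 and 13.6 with MS177N1 and 3.30 and 13.5 with DMSO (3.10 against DMSO, SE 0.54, limma adjusted p = 0.000134). ABCG1 had 63.2 and 58.9 with MS177, 18.0 and 32.1 with C24, 27.3 and 27.3 with MS177N1 and 25.3 and 9.61 with DMSO (1.89, SE 0.43, limma adjusted p = 0.00130). In both genes the MS177 libraries stood above all others and the DMSO libraries differed from each other. The lysosomal lipase LIPA and the lysosomal cholesterol transporter NPC1 fell by 0.62 (SE 0.07) and 0.50 (SE 0.09). Without DMSO replicate 1 the count of this list that fell was 4.

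Of 24 other genes of fatty acid and glycerolipid synthesis, 10 fell (41.7%) and 6 rose (median -0.03). DGAT2, which makes triacylglycerol, had 571 and 546 normalized reads with MS177, against 1314 and 1324 with DMSO (-1.24, SE 0.07, limma adjusted p = 5.09e-10), and PTPLAD1, a dehydratase of fatty acid elongation, fell by 0.87 (SE 0.05). LPIN2, the paralog of LPIN1, rose by 0.87 (SE 0.12), as LPIN1 did, and MID1IP1, an activator of acetyl-CoA carboxylase, rose by 0.64 (SE 0.07). Of 16 genes of fatty acid oxidation, 5 rose (31.2%) and 4 fell, again close to the shares of all genes (median -0.01), with ACADVL, the very-long-chain acyl-CoA dehydrogenase, at 0.56 (SE 0.05), CPT1B, a carnitine palmitoyltransferase, at 0.96 (SE 0.25), ACADM, the medium-chain dehydrogenase, at -0.27 (SE 0.06) and CPT1A at -0.26 (SE 0.08); 2 of this list fell under total-read scaling or with only the groups compared in the fit. Of 7 genes of lipid droplets and lipolysis, 3 fell (42.9%) and 2 rose (28.6%; median -0.24), with LIPE, hormone-sensitive lipase, at -1.21 (SE 0.10), PLIN2, a droplet coat protein, at -0.33 (SE 0.10), MGLL, monoacylglycerol lipase, at 0.46 (SE 0.09) and PNPLA2, adipose triglyceride lipase, at 0.45 (SE 0.08).

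**Figure D5:**
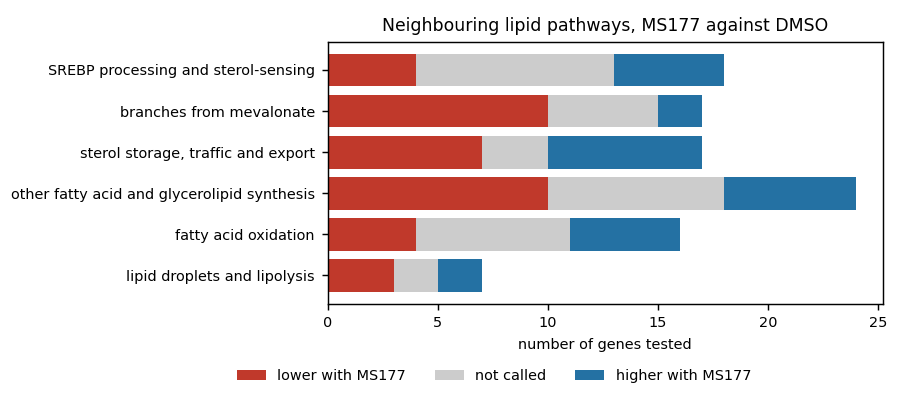
Number of genes tested in 6 neighbouring lipid pathways, split into those called lower, not called and called higher with MS177 against DMSO. The branches from mevalonate have 10 of 17 genes lower, while SREBP processing and fatty acid oxidation have 4 lower and 5 higher each.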

How the data were processed

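The authors deposited 1 table of normalized log2 values, per the file headers, with 16295 genes as rows and 8 libraries as columns. The submitters' processing notes list hg19, STAR 2.4.2, Salmon 0.1.19 and DESeq2 1.38.2, without saying what each did. The annotation used and whether counting used strand are not given in the sources used here. The deposited values behave as a variance-stabilizing transformation whose smallest value, 5.97, stands for 0 reads. Inverting it gave whole reads for all 130360 values (within 0.01), with size factors equal to median-of-ratios factors recomputed from those reads.

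A gene entered the tests (14164 genes) if 2 or more libraries had 10 or more of its reads, scaled to the median library size, and if its reads over all libraries came to 15 or more. Log2 of size-factor-normalized reads plus 1 was modelled in limma 3.58.1, using its trend and robust settings (R 4.3.3, statmod 1.5.0). The 4 groups shared a single model, from which 6 two-sided comparisons were taken, and p-values were adjusted by Benjamini-Hochberg over all genes tested. A quasi-likelihood test had been planned for a table of counts; because the file holds log2 values, limma was used. The procedure was tested on simulated data in which few genes changed, evenly up and down, and the size factors were known. In the data many genes were called, so that test does not cover this setting.

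The members and the lists were chosen with earlier results of these data known, so no test was made over a list. Some further genes of the pathway are not analysed here. Values in every library are given for the regulators and for the 3 genes with the largest change in each role group. They are also given for genes called in the direction opposite to most of their arm. Other genes with such values were chosen after their values were seen. In each neighbouring list the 2 most raised and 2 most lowered called genes are named. C14orf1 was matched to ERG28 through RefSeq synonyms, and overlapping genes were found from RefSeq spans (GRCh38.p14), used by name only. Intervals are 95% intervals of the fitted log2 fold change. Alternatives changed the pseudocount, filter, scaling, weights, values tested, groups in the fit, replicate block and libraries.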

Additional observations from a re-analysis of the deposited data

How the results depend on the processing

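Results with MS177 against DMSO, C24 or MS177N1 and of C24 and MS177N1 against DMSO were recomputed under 18 other settings, of which 1 was chosen after seeing the data (removal of a trend with transcript length and GC content). Over all pairs of a setting with a member count, arm count or arm median, 712 values kept their direction and stayed within 1.5 times the reported count, or within 1 SD between replicates of the reported median (0.0248 for the sterol and 0.0335 for the fatty acid arm), 44 moved further and 0 reversed. Only a median could reverse, since a count could only stay or move. The 712 include the counts of 0 in the comparisons without MS177. With MS177, 23 to 24 members were called lower against DMSO in each of these settings. Under total-read scaling the sterol and fatty acid medians were -0.62 and -0.39 against DMSO, -0.55 and -0.27 against C24, and -0.50 and -0.23 against MS177N1; 4 members were called higher against MS177N1, and 1 sterol-arm gene was called higher against each of C24 and MS177N1. This scaling moves the median of all genes by 0.08. Under it 58.0% of the calls over all genes with MS177 against DMSO were higher, against 49.9% in the main fit. The even shares of all genes used as background thus depend on the scaling. With the deposited log2 values, whose scale compresses the changes of genes with few reads, the same medians were -0.64 and -0.41, -0.57 and -0.30, and -0.52 and -0.26. With the length and GC trend removed, the fatty acid medians were -0.54 against DMSO, -0.42 against C24 and -0.36 against MS177N1, the sterol median against MS177N1 was -0.60, and 1 sterol-arm gene was called higher against each of C24 and MS177N1; the cause was not tested.

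With each library left out in turn, 1 to 2 members, all of the fatty acid arm, were called higher against DMSO, and 1 to 2 against C24. The sterol median ranged from -0.72 to -0.66 against DMSO, -0.67 to -0.57 against C24 and -0.61 to -0.54 against MS177N1, and the fatty acid median from -0.57 to -0.39, -0.43 to -0.28 and -0.38 to -0.23. Where a group keeps 1 library, that library is assumed to vary like the other groups.

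Changes near 0 turned sign. MVD was at 0.04 under total-read scaling and 0.09 with the trend removed, and from -0.12 to 0.03 with a library left out (0.01 without MS177 replicate 2, 0.03 without DMSO replicate 1). STARD4 was at 0.08 under total-read scaling, 0.04 without MS177 replicate 1 and 0.01 without DMSO replicate 1. SC5D was at -0.01 with voom weights and -0.06 with the trend removed, and from -0.13 without MS177 replicate 1 to 0.14 without MS177 replicate 2 (-0.09 without DMSO replicate 1). ELOVL6 was at -0.09 with the trend removed, and from -0.03 without MS177 replicate 2 to 0.19 without MS177 replicate 1. HSD17B7 was at -0.25 with the trend removed (limma adjusted p = 0.0556).

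Deviations of libraries with the same replicate number correlated at -0.136 to 0.217, so the numbers were not taken as pairs. With the replicate number as a block, 24 members were called lower against DMSO, 23 against C24 and 22 against MS177N1, and over all genes 4125 rose and 4174 fell against DMSO.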
